A study of Danio rerio with 4 samples.

Results

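The acidic chitinases of zebrafish were taken as all probes whose gene symbol in the platform's annotation begins with chia. This gave 6 probes of 5 genes (chia.1, chia.2, chia.3, chia.4 and chia.6), out of 43603 probes and 15554 named genes. The family was selected on the measured log2 difference of chia.6 between cadmium and control and on its small spread between RNAs. All chitinase values in that comparison are therefore given as a description, with no test. RefSeq lists 6 such genes, and chia.5 had no probe under its name.

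The series measured liver RNA on 4 two-colour Agilent oligonucleotide arrays. There were 2 control RNAs (0 µM cadmium, replicates 2 and 3) and 2 cadmium RNAs (5 µM, replicates 1 and 2), all from day 4. The unit of the dose is that of the series' design text, and a sample label writes a temperature unit beside the same numbers. Each RNA was hybridised once in Cy5 and once in Cy3, and every array set a cadmium RNA against a control RNA. Array 1 held cadmium replicate 1 with control replicate 2, and array 2 held cadmium replicate 1 with control replicate 3. Array 3 held cadmium replicate 2 with control replicate 3, and array 4 held cadmium replicate 2 with control replicate 2. The labels used here name neither the strain, sex and age of the fish nor the number of fish behind each RNA. The values are ratios, so whether markers of liver or of another tissue were present at all could not be checked.

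Acidic chitinases are secreted enzymes of glycosyl hydrolase family 18 that cut chitin, a polymer of N-acetylglucosamine found in insects, crustaceans, fungi and worms. In mammals the acidic chitinase is made mainly in stomach and lung and serves in digestion of chitin-containing food and in defence against chitin-coated organisms. Fish carry several copies of the gene. In the RefSeq gene table, chia.1, chia.2 and chia.3 were neighbours, with ovgp1, which had no probe under its name, between chia.2 and chia.3. The genes chia.4, chia.5 and chia.6 formed another run of neighbours. The probe annotation names no genome build, so no coordinates are given. Probe sequences were not used here, so whether a probe also binds RNA of another chitinase gene was not tested.

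The gene chia.6 was lower in both cadmium RNAs than in both control RNAs, by nearly the same amount on every array. Its single probe, A_15_P139551 (Entrez Gene 322420, NM_199603), had a log2 ratio of cadmium over control of -1.79 on array 1, -1.81 on array 2, -1.77 on array 3 and -1.94 on array 4. The arrays differed by at most 0.17, and every array was far below 0. The mean log2 difference was -1.83, a 3.55-fold lower signal in the cadmium RNAs. All signs here assume that the deposited ratio runs Cy5 over Cy3. This reading is likely, since limma computes ratios in that direction and the array titles name the Cy5 RNA first, but no source states it. If the ratio ran the other way, every sign would turn and chia.6 would be 3.55-fold higher.

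Solving the loop for the 4 RNAs placed chia.6 at 0.95 in control replicate 2 and 0.87 in control replicate 3, in log2 units relative to the mean of the 4 RNAs. It stood at -0.89 in cadmium replicate 1 and -0.94 in cadmium replicate 2. The control mean was 0.91 ± 0.06 and the cadmium mean -0.91 ± 0.04 (SD, n = 2 each), so the groups did not overlap. The gap between the control RNAs was 0.08 and that between the cadmium RNAs 0.06 in size, against medians over all genes of 0.11 and 0.16. The dye effect of chia.6 was -0.05. In bulk RNA, fewer cells that make chia.6 and less chia.6 RNA per cell cannot be told apart.

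Non-overlap of the groups alone was common in these data. Both cadmium RNAs lay below both control RNAs for 1579 of 15554 genes (10.2%), and on either side for 21.8%. Of the 5 acidic chitinases, only chia.6 had non-overlapping groups. Being lower on all 4 arrays and by 0.5 or more in the mean was less common, at 168 genes (1.08%). The mean difference of chia.6 was the seventh lowest of all genes. With every array at or below -1 there were 7 genes, and with every array at or below -1.5 there were 2, chia.6 and hamp, which encodes the iron hormone hepcidin. Among those 7, the range over the arrays was 0.17 for chia.6, 0.32 for the transcription factor gene junba and between 0.70 and 1.63 for the other genes. The family was chosen for this agreement, so nothing further is read from these ranks.

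**Figure D1:**
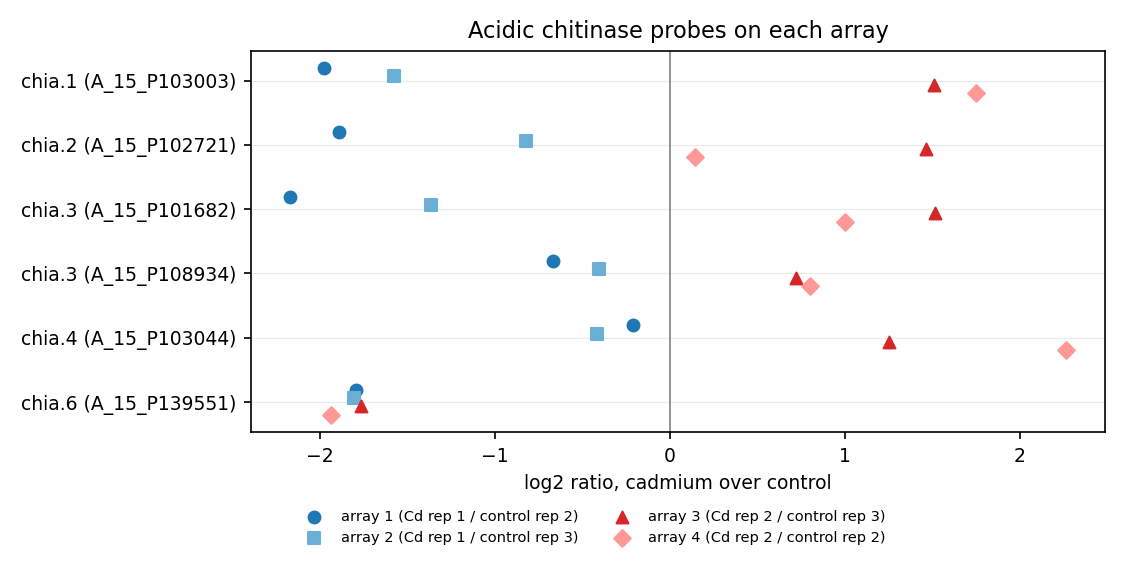
The log2 ratio of cadmium over control (horizontal axis) is plotted for each of the 6 acidic chitinase probes on each of the 4 arrays. The chia.6 probe sits between -1.94 and -1.77 on all arrays, whereas the other 5 probes are below 0 on both arrays of cadmium replicate 1 and above 0 on both arrays of cadmium replicate 2.

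The other 4 chitinase genes did not follow chia.6. Each was lower than the controls in cadmium replicate 1, chia.4 only just (-0.68 against -0.66 in control replicate 2 in the solved RNAs). All were higher than the controls in cadmium replicate 2, so the 2 cadmium RNAs stood on opposite sides. This pattern, on both arrays of each cadmium RNA, was present in 4 of the 5 chitinases and in 2023 of all genes (13%). At a size of at least 0.5 on every array it was present in 2 of the 5 (chia.1 and chia.3) and in 18 of all genes (0.116%). For chia.3 this held for the mean of its 2 probes, whereas probe A_15_P108934 alone was at -0.40 on array 2. The opposite split at that size was present in 2 of all genes (0.0129%) and in 0 of the chitinases.

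The largest gap between the cadmium RNAs was that of chia.1 (Entrez Gene 406323, probe A_15_P103003). Its log2 ratio was -1.98 on array 1, -1.58 on array 2, 1.51 on array 3 and 1.75 on array 4. The 2 arrays of each cadmium RNA agreed in direction. In the solved RNAs it stood at 0.08 and 0.00 in control replicates 2 and 3, at -1.74 in cadmium replicate 1 and at 1.67 in cadmium replicate 2. The cadmium RNAs thus differed by 3.41 (10.6-fold) while the control RNAs differed by 0.08. Only gmnn, which encodes the replication licensing inhibitor geminin, had a larger gap between the cadmium RNAs in size (3.99), out of 15554 genes. The mean log2 difference between cadmium and control was -0.07, with a cadmium SD of 2.41 (n = 2). That mean describes neither cadmium RNA.

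For chia.2 (Entrez Gene 406338, probe A_15_P102721) the ratios were -1.89, -0.82, 1.46 and 0.14 on arrays 1 to 4. Both control RNAs lay between the cadmium RNAs but differed from each other, at 0.74 in control replicate 2 and -0.46 in control replicate 3. That control gap of 1.20 was reached or passed by 0.321% of all genes. The cadmium RNAs stood at -1.22 and 0.94, and the mean difference was -0.28. Among the chitinases, chia.2 was the one in which the choice of control mattered most for cadmium replicate 2. The array ratios, dye effect included, were 1.46 against control replicate 3 and 0.14 against control replicate 2.

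Both probes of chia.3 (Entrez Gene 406819) had the same signs, with different sizes. Probe A_15_P101682 was at -2.17, -1.37, 1.52 and 1.00 on arrays 1 to 4, and probe A_15_P108934 at -0.67, -0.40, 0.72 and 0.80. The first probe therefore spanned 3.69 over the arrays and the second 1.47. The gap between the cadmium RNAs was 3.03 in the first probe and 1.30 in the second, and their means over the arrays were -0.26 and 0.11. Averaged over the probes, chia.3 stood at 0.22 and -0.15 in the controls, at -1.12 in cadmium replicate 1 and at 1.04 in cadmium replicate 2.

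The gene chia.4 (Entrez Gene 337333, probe A_15_P103044), which lies on the other side of chia.5 from chia.6, had a different shape. Its ratios were -0.21 and -0.42 on the arrays of cadmium replicate 1 but 1.25 and 2.26 on those of cadmium replicate 2. In the solved RNAs it stood at -0.66 and -0.06 in the controls, -0.68 in cadmium replicate 1 and 1.40 in cadmium replicate 2. Cadmium replicate 1 and control replicate 2 were thus nearly level, and cadmium replicate 2 alone stood high. The mean difference of 0.72, with a cadmium SD of 1.47 (n = 2), became -0.31 without cadmium replicate 2.

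**Figure D2:**
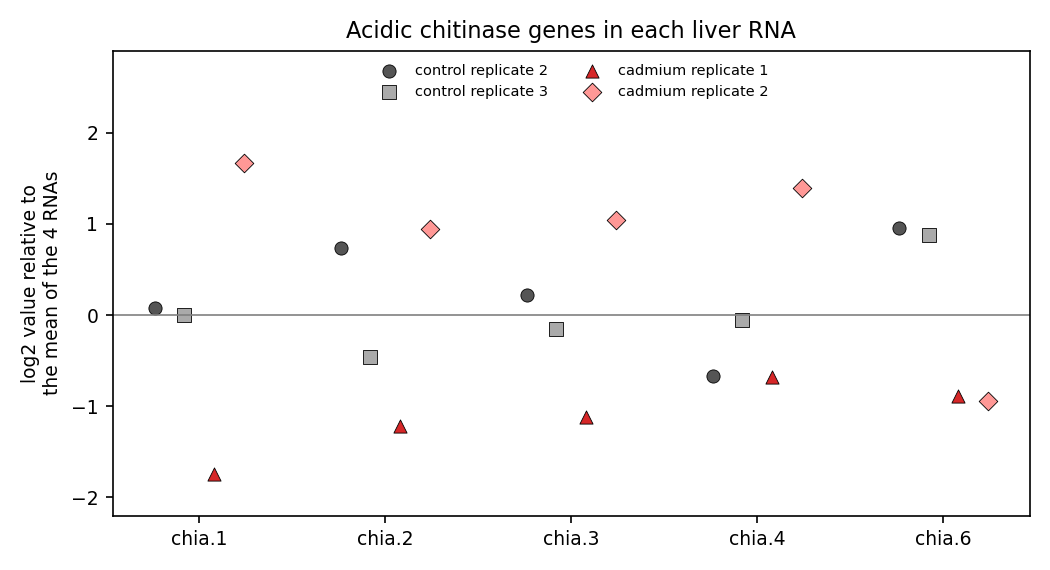
The log2 value of each measured acidic chitinase gene relative to the mean of the 4 RNAs (vertical axis) is shown for the 2 control and 2 cadmium RNAs. Only for chia.6 do both cadmium RNAs lie below both controls, and for chia.1 the cadmium RNAs stand at -1.74 and 1.67 on either side of the controls.

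Setting each cadmium RNA against the controls separately showed where the family parted. In cadmium replicate 1, chia.6 (-1.80), chia.1 (-1.78), chia.2 (-1.36) and chia.3 (-1.15) were all low, the 4 being among the 24 lowest of 15554 genes in that RNA, and chia.4 was at -0.31. In cadmium replicate 2, chia.6 was at -1.85, the tenth lowest gene, whereas chia.4 (1.76), chia.1 (1.63), chia.3 (1.01) and chia.2 (0.80) were high. By Euclidean distance over the 4 arrays, chia.2 and chia.3 were the nearest pair of the family (0.961), and chia.4 and chia.6 the farthest (5.59), which flank chia.5 in the genome. The 4 pairs with chia.6 had distances between 3.97 and 5.59, against 0.961 to 2.74 for the 6 pairs without it. All these distances share the same 4 arrays. The family was selected on the values of chia.6 on those arrays, so nothing is read from its distance to the others.

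Markers of other tissues also differed between the RNAs. Of 12 measured ovary and oocyte markers, all 12 were highest in cadmium replicate 2 and lowest in cadmium replicate 1, which was the case for 17.7% of all genes. Against the controls, their median stood at -0.42 for cadmium replicate 1 and at 1.68 for cadmium replicate 2, with the egg coat genes zp3 at -0.61 and 2.38 and zp3a.1 at -0.39 and 2.00. The values of chia.4 (-0.31 and 1.76) lay within the range of these markers in both RNAs. The value of chia.1 in cadmium replicate 1 (-1.78) lay below that of every ovary marker, the lowest of which was zar1, a maternal-effect gene, at -0.72. The part of ovary RNA in the chitinase values was not tested.

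Of 13 intestine markers 7 were measured, with medians of -0.19 in cadmium replicate 1 and 0.37 in cadmium replicate 2. Not all of them moved alike. The brush border gene vil1 was at -1.10 and 0.53, on the same sides as chia.2 and chia.3. The fatty acid binding protein gene fabp2 (-0.25 and 0.61), cldn15la (-0.47 and 0.16) and mep1a.1 (-0.15 and 0.37) stood on those sides only in the mean of 2 arrays. Single arrays differed, with fabp2 at 0.14 and mep1a.1 at 0.39 on array 2 and cldn15la at -0.28 on array 4. On both arrays of each cadmium RNA, 1 of the 7 (vil1) held those sides, against 13% of all genes. The lipoprotein gene apoa4a was above the controls in both RNAs (0.14 and 0.75). The goblet cell gene agr2 (0.04 and 0.05) and the intestinal transcription factor gene cdx1b (-0.19 and -0.19) had like values in both RNAs. Exocrine pancreas markers split the controls instead, with 11 of 14 highest in control replicate 2 (18.8% of all genes) and 12 of 14 lowest in control replicate 3 (25.6% of all genes). Their medians in those RNAs were 0.72 and -0.86, and the trypsin gene prss59.2 stood at 1.16 and -1.82. Islet markers did so too, with 3 of 4 highest in control replicate 2, 4 of 4 lowest in control replicate 3 and medians of 0.75 and -1.08. The control RNAs stood in that order for chia.1, chia.2, chia.3 and chia.6 and in the other order for chia.4. The share of all genes in that order is not given here. The gap between the control RNAs was largest for chia.2 (1.20). It was 0.08 for chia.1 and chia.6, below the median of 0.11 over all genes, so for these genes the order says little. The part of intestine, pancreas or islet RNA in the chitinase values was not tested.

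In humans a related chitinase, chitotriosidase, is made by macrophages. The medians of 10 macrophage markers (0.03 and -0.21 in cadmium replicates 1 and 2 against the controls) and of 5 neutrophil and granulocyte markers (-0.09 and -0.02) were smaller in size than the ovary medians. Of the macrophage markers 8 of 10 had a mean log2 difference below 0, against 43.1% of all genes. Against the controls, mpeg1.1 (-0.52), mfap4.1 (-0.54), c1qb (-0.59) and c1qc (-0.55), named after their values were seen, were low in cadmium replicate 2. In cadmium replicate 1 mpeg1.1 was at 0.08, mfap4.1 at 0.17, c1qb at -0.01 and c1qc at 0.17. Of the rest of the list, cd74b was also low in cadmium replicate 2, at -0.30 against 0.24 in cadmium replicate 1. In cadmium replicate 2 the cathepsin gene ctss2.1 was at 1.48, spi1b at -0.11, csf1ra at -0.02, c1qa at -0.002 and cd74a at 0.07. The complement gene c1qb, a macrophage marker, had a mean log2 difference of -0.30 ± 0.28 and the myeloperoxidase gene mpx one of -0.26 ± 0.20 (moderated SE, 2 RNAs per group). The mean log2 difference of ctss2.1 was 0.65 ± 0.62. Medians were 0.09 and -0.12 for 6 red cell markers, 0.86 and -0.06 for 4 islet markers and 0.08 and -0.04 for 14 hepatocyte markers. The members furthest from 0 in the mean log2 difference were the spectrin-binding protein gene epb41b (-0.41 ± 0.27) and the globin gene hbba2 (0.32 ± 0.70) for red cells, and the somatostatin genes sst1.1 (0.57 ± 0.86) and sst2 (0.38 ± 0.89) for islets. For hepatocytes they were the plasma carrier genes hpxa (0.48 ± 0.14) and ttr (-0.40 ± 0.45). The collagenase gene mmp13a of the granulocyte list was at 0.23 ± 0.32, the lipoprotein gene apoa4a of the intestine list at 0.45 ± 0.24 and the trypsin gene prss1 at 0.46 ± 0.86. In limma 0 of the 72 markers of all lists had an adjusted p under 0.05, as for 0% of all genes, and 2, both hepatocyte markers, had an unadjusted p under 0.05, a share near the 2.02% of all genes.

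**Figure D3:**
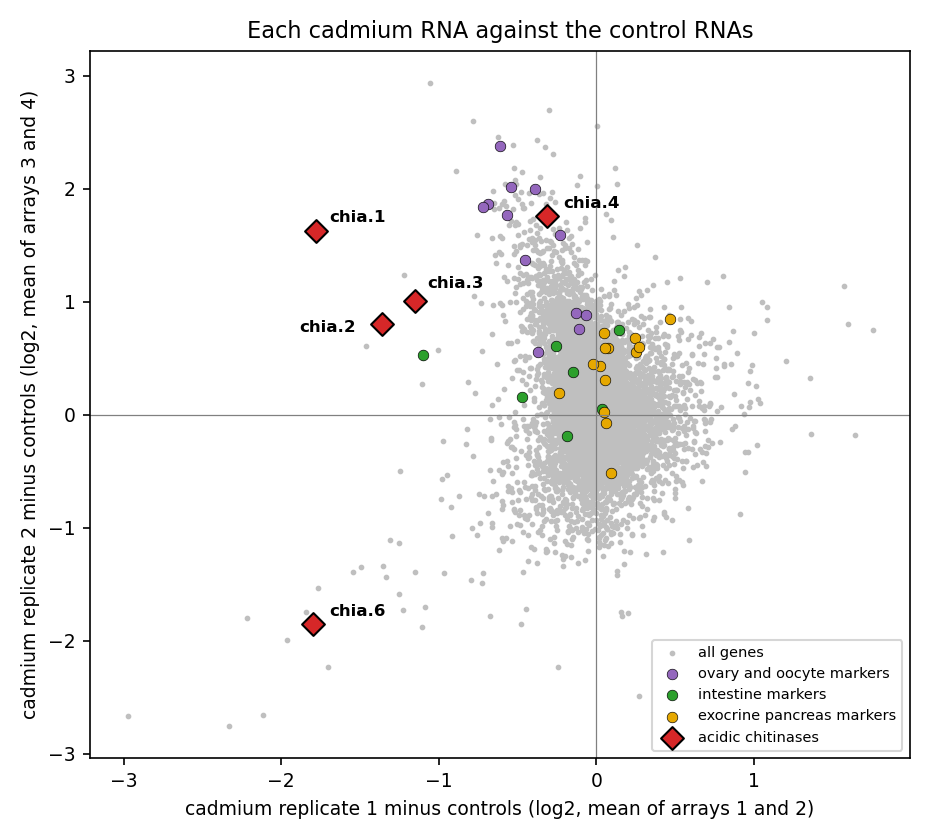
The log2 difference from the controls is plotted for cadmium replicate 1 (horizontal) and cadmium replicate 2 (vertical), each the mean of 2 arrays, for all genes (grey), the acidic chitinases (red diamonds) and 3 marker lists. The chia.6 point lies at -1.80 and -1.85, chia.1, chia.2 and chia.3 lie to the left of the ovary markers, and chia.4 lies among them.

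The other genes that make, break down or recycle chitin's sugar gave no call. Beside the acidic chitinases, 21 of 29 listed genes were measured. In limma 0 of the 21 had an adjusted p under 0.05, as for 0 of all 15554 genes (0%), and 1 (oga) had an unadjusted p under 0.05, against 314 of all genes (2.02%). Of the 21, 16 were above and 5 below 0, with a median log2 difference of 0.06, against 8854 above, 6700 below and a median of 0.02 over all genes. In 20 of the 21 the difference was under 0.5 in size, as in 96.7% of all genes.

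Among the other genes listed under chitin breakdown, a grouping not checked here, the chitinase domain gene chid1 was at 0.19 ± 0.11. It was higher on all 4 arrays (0.07 to 0.35). The lysosomal chitobiase gene ctbs was at 0.03 ± 0.11 and the hexosaminidase gene hexd at 0.06 ± 0.12. The gene fibcd1b, whose human relative encodes a chitin-binding receptor, was at 0.07 ± 0.09. None of these 4 genes had the signs of chia.1 to chia.4 on the 4 arrays. Their gaps between the cadmium RNAs were at most 0.25 in size, against 2.07 to 3.41 for those chitinases.

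The 7 measured genes grouped as salvage and breakdown of N-acetylglucosamine were all above 0, from 0.01 to 0.41, as were 56.9% of all genes. Of these 7, gnpda1, gnpda2, nagpa and naglu turned sign when 1 RNA was left out. The largest value was that of amdhd2, a deacetylase of N-acetylglucosamine 6-phosphate, at 0.41 ± 0.31, with ratios of -0.12, 0.19, 1.00 and 0.57 on arrays 1 to 4. Both arrays of cadmium replicate 2 were higher than those of cadmium replicate 1. The same held for uap1l1, a gene related to the last enzyme of UDP-N-acetylglucosamine synthesis, with a difference of 0.36 ± 0.28, and for nansa, a sialic acid synthase gene, at 0.44 ± 0.33. Without cadmium replicate 2, amdhd2 was at 0.04, uap1l1 at -0.02 and nansa at -0.002. The gene nansb, annotated as another sialic acid synthase, was at -0.41 ± 0.24, with ratios between -0.90 and -0.07. It was at -0.11 without control replicate 2 and at -0.71 without control replicate 3. The largest difference of the list was that of oga, which encodes the enzyme that removes N-acetylglucosamine from proteins, at -0.54 ± 0.16 (adjusted p = 1.00), with ratios of -0.30, -0.40, -0.73 and -0.71. Its 4 arrays were all below 0, and without cadmium replicate 2 its value was -0.35. The transferase gene ogt.2, which acts in the opposite direction, was at -0.18 ± 0.14.

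**Figure D4:**
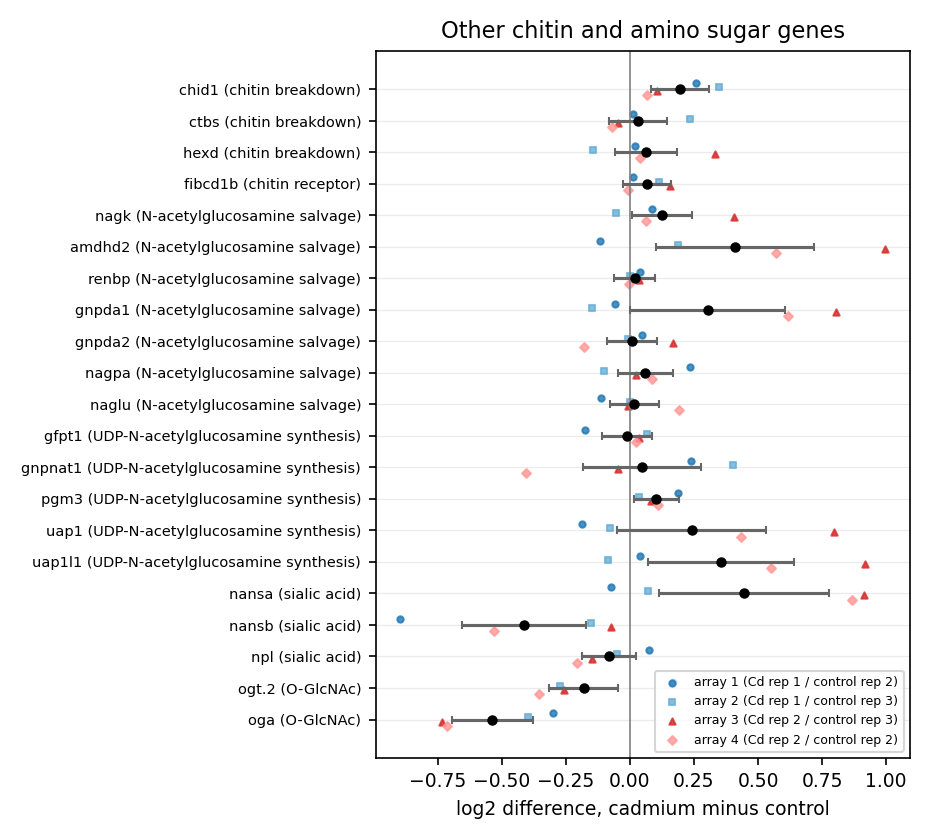
Mean log2 differences between cadmium and control (black points) with moderated standard errors (bars, 2 RNAs per group) are shown for the 21 measured chitin and amino sugar genes other than the acidic chitinases, with the 4 arrays as coloured points. All means but that of oga (-0.54) lie within 0.5 of 0. Both arrays of cadmium replicate 2 stand highest for hexd, amdhd2, gnpda1, uap1, uap1l1 and nansa.

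The genes beside chia.6 did not share its values. On the side of chia.4, beyond that gene, lay naca (-0.02 ± 0.09), which encodes a chaperone of nascent proteins. The next measured gene was tfip11 (0.16 ± 0.13), which encodes a splicing factor. On the other side of chia.6 came pm20d1.2 (-0.15 ± 0.12) and pm20d1.1 (0.15 ± 0.29), which encode amidases of N-acyl amino acids. Beyond them lay lemd1 (0.48 ± 0.56). None of these 5 genes had an adjusted p under 0.05 in limma, as for 0 of all 15554 genes (0%), so this does not set them apart. The lemd1 ratios, -0.05, -0.49, 1.07 and 1.39, had the signs of those of chia.4, as had 13% of all genes.

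The genes whose 4 array values were nearest to those of chia.6, by Euclidean distance on the log2 scale over 4 arrays, lay at distances between 0.786 and 1.51. The nearest was si:busm1-57f23.1 (-1.88, -1.65, -1.88 and -1.18), followed by si:ch73-141c7.1 (-1.34, -0.86, -1.87 and -1.88). Next were igfbp1a (1.11 away), which encodes a binding protein of insulin-like growth factors, p3h3 (1.21), a prolyl hydroxylase gene, and lygl1 (1.21), a goose-type lysozyme gene. The remaining genes were the AP-1 factor genes junba (1.27) and junbb (1.49), the repressor gene nfil3-5 (1.44), the chemokine gene ccl19a.1 (1.45) and the cathepsin L gene ctsl.1 (1.51). All 10 were below 0 on all 4 arrays, which the measure favours. Their ranges over the arrays were wider than that of chia.6, between 0.32 (junba) and 1.63 (ctsl.1). The family was chosen partly for the small spread of chia.6, so nothing is read from this. For ctsl.1, arrays 1 and 4, which share control replicate 2, were at -2.71 and -2.81, and arrays 2 and 3, which share control replicate 3, at -1.22 and -1.18.

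**Figure D5:**
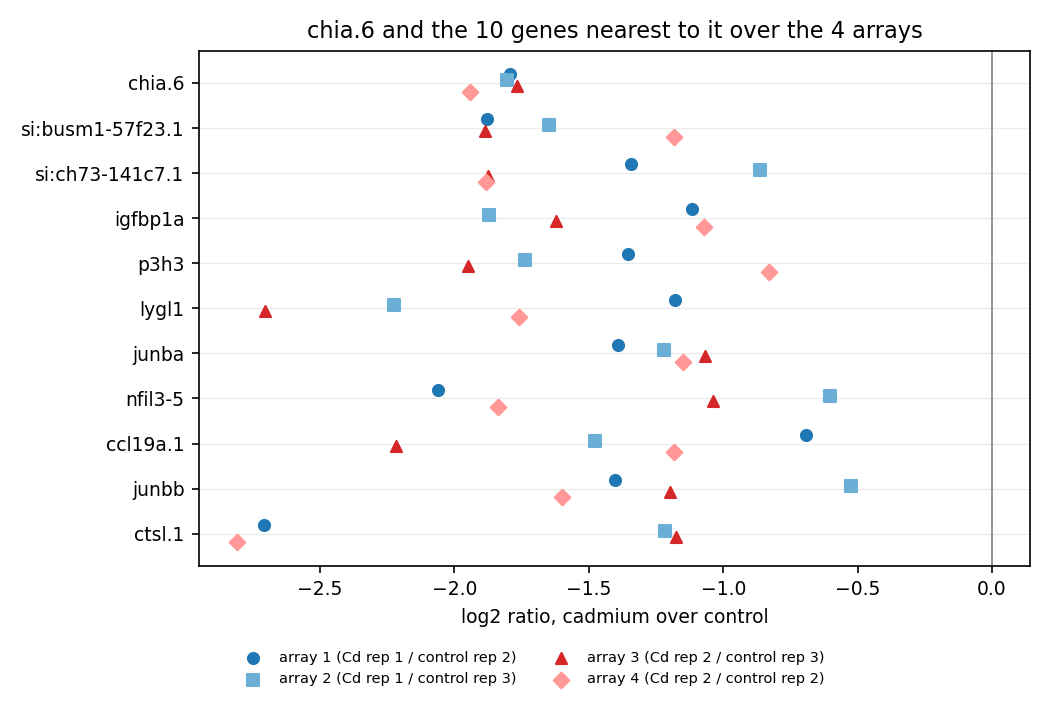
The log2 ratio of cadmium over control (horizontal axis) on each array is shown for chia.6 and the 10 genes with the smallest Euclidean distance to it, in order of distance. The 4 arrays of chia.6, whose small spread was part of its selection, span 0.17, and those of the other genes between 0.32 and 1.63.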

How the data were processed

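Total RNA of zebrafish liver was labelled with version 5.7 of Agilent's two-colour protocol, per the labels' protocols. The deposited values are log2 dye ratios of 43603 probes on each array, with 0 values missing. Per the submitters' processing notes the authors used limma. Its version and how background, normalization and filtering were handled are not stated in the labels, and no signal level per spot was used, so a dim probe cannot be told from a bright one. Base 2 was inferred from the largest value, 6.14 in size. The column medians lay between -0.0005 and 0.0037, so the ratios appear centred, by an unknown method. The direction is not stated and was taken as Cy5 over Cy3. Arrays of one dye orientation correlated at -0.04 and -0.22 over probes, and their SDs ran from 0.198 to 0.388, the widest being arrays 3 and 4.

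Ratios were turned to cadmium over control. Per gene, probes were averaged, and the 4 ratios were solved for 4 RNA values (sum 0) and a dye effect. Groups were compared in limma 3.58.1 (lmFit, then eBayes; R 4.3.3) with two-sided tests adjusted by Benjamini-Hochberg over all 15554 genes, with 2 degrees of freedom from the residuals and 1.91 from the prior. The method was run on simulated data without array error and with equal spread in both groups. Recovery of the RNA values was fixed by that setting, so the run says little about these data. Here the gap between the cadmium RNAs had an SD of 0.436 over genes, and that between the control RNAs 0.237. Replicates are called such by the labels without naming separate fish, so the p-values reflect only how far these RNAs differ, which may be technical, and the number of arrays limits the precision.

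Gene names came from the platform's annotation table: 23717 had 1 symbol, 0 several, and 19886 are unnamed here. Identifiers of 23534 were found in the RefSeq gene table (assembly GRCz12tu), which gave the order of genes. The members and lists were chosen with earlier results of these data known. Genes named were all chitinases, the 5 list members with the largest difference, the 10 genes nearest to chia.6, its 3 measured neighbours per side and the 2 markers per list with the largest difference. Further genes given beside these were chosen after their values were seen. A planned part, genes whose protein holds the family 18 signature, was not applied, because protein and promoter sequences were not used here.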

Additional observations from a re-analysis of the deposited data

How the results depend on the processing

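The mean log2 difference of chia.6 lay between -1.87 and -1.79 when 1 RNA at a time was left out. It lay between -1.86 and -1.83 under the alternative units, scalings, centring and probe summary. A value without 1 RNA is the mean of 2 of the same 4 arrays. The family was selected partly for the small spread of chia.6 on those arrays, so its narrow ranges are no test. Leaving out 1 RNA gave -1.78 to 1.63 for chia.1, -1.36 to 0.80 for chia.2, -1.15 to 1.01 for chia.3 and -0.31 to 1.76 for chia.4. The sign of chia.1 turned without cadmium replicate 1 (1.63), that of chia.2 without cadmium replicate 1 (0.80) or control replicate 2 (0.32), that of chia.3 without the same RNAs (1.01 and 0.12) and that of chia.4 without cadmium replicate 2 (-0.31). Scaling the arrays to one median absolute deviation gave -0.29, -0.49, -0.23 and 0.64 for chia.1 to chia.4, and quantile normalization -0.42, -0.48, -0.34 and 0.46, all on the same side of 0 as before. Reading the ratio as Cy3 over Cy5 gave 0.0745, 0.278, 0.0720, -0.722 and 1.83 for chia.1, chia.2, chia.3, chia.4 and chia.6. Genes called in limma numbered 0, and 0 probes were called. With arrays as units and no dye term, which treats arrays that share an RNA as independent, 2 were called. These were hamp and chia.6, and for chia.6, on whose values the family was selected, the call is no test. Leaving out 1 RNA gave between 0 and 96 calls, the 96 without cadmium replicate 1, with cadmium replicate 2 assumed to vary like the controls. Genes at an unadjusted p under 0.05 in limma numbered 314, 1109 with arrays as units and 778 with a dye term added. Of the 21 other chitin and amino sugar genes, 5 were lower, 6 to 10 without 1 RNA (8 without control replicate 3 and 10 without cadmium replicate 2) and 16 with Cy3 over Cy5. The cause of these changes was not tested. No paired analysis was possible because the groups share only replicate number 2.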

Other observations

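The genes nearest to the other chitinases over the 4 arrays were looked up after the values had been seen. For chia.3 the nearest genes were apoea (an apolipoprotein E gene, distance 0.559), the brush border gene vil1 (0.691), the chaperone gene hspa5 (0.708), the fatty acid binding protein gene fabp1b.1 (0.734), ficd (0.738), the carboxylate transporter gene slc13a2 (0.772), rnasel2 (0.846) and the meprin gene mep1ba (0.896). Of these, apoea, vil1, fabp1b.1, slc13a2 and rnasel2 were also among the 8 nearest to chia.2, with s100a10a first (0.621). The values of rnasel2 are means of 3 probes that disagreed. Its probe A_15_P178006 was at -1.87, -1.13, -1.01 and -1.75 on arrays 1 to 4, whereas the mean was above 0 on arrays 3 and 4 (1.03 and 0.11). On arrays 1 to 4, slc13a2 was at -1.70, -1.23, 0.91 and 0.30 and fabp1b.1 at -1.55, -0.65, 0.82 and 0.29. For chia.1 the nearest genes were apoea (1.23) and chia.3 (1.29), and the third was the egg coat gene zp3f.1 (1.61).

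Around chia.4, within a distance of 0.524, lay mylipa, sinup, the mitotic kinase gene aurka, zgc:171776, the claudin gene cldnd, zgc:195245, the germ cell gene gtsf1 and s100a1. The values of aurka were -0.25, -0.46, 1.24 and 1.83 on arrays 1 to 4, beside -0.21, -0.42, 1.25 and 2.26 for chia.4. Among the 18 genes that were beyond 0.5 on every array with the cadmium RNAs on opposite sides as in chia.1 were zp2.1, zp3f.1, the vitellogenin gene vtg3, gmnn, aurkb and mep1ba, beside chia.1 and chia.3. The others were tmsb5, cdca7a, sybu, slc7a1b, apoea, cbx3a, hspa5, cdc25b, dap1b and atxn2l. Of the 2 chia.3 probes, A_15_P108934 alone did not reach that size (-0.40 on array 2).

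Of 10 probes at or below -1 on all 4 arrays, 1 is unnamed here. That probe, A_15_P145006, stood at -2.67, -2.42, -1.51 and -2.08.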
